A study of Homo sapiens with 44 samples.

Results

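Messenger RNA of 10 genes of the Notch pathway was followed through the cardiac differentiation of the established line H1, which derives from a human embryo. The genes were listed by symbol and not by their values, and symbols were matched to the gene identifiers through GENCODE. They are 3 receptors (NOTCH1, NOTCH2 and NOTCH3), 3 ligands (JAG1, DLL1 and DLL3) and 4 target genes of the HES/HEY family (HES1, HEY1, HEY2 and HEYL), out of 60499 genes in the tables. All 10 passed the filter on low counts, as did 22955 genes in all, and NOTCH4 and the other genes of the pathway are described as a separate list.

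The 44 libraries are from single culture wells and fall into 12 groups. Pluripotent cells on the laminin LN-521 form a group of 3 wells, and all other wells carried LN-521 with LN-221. Confluent cells in Nutristem medium are day 0 (3 wells), and cells under CHIR99021, a GSK3 inhibitor that activates Wnt signalling, in RPMI medium with insulin-free supplement are days 1 and 3 (3 wells each). Day 5 (5 wells) followed IWP2, an inhibitor of Wnt production, and days 7 and 9 (5 wells each) had neither compound. From day 11 (5 wells) through days 14, 20, 30 and 90 (3 wells each) the medium held the CTS grade of the supplement. No well received an agent directed at Notch, all wells are of 1 cell line, and pluripotent cells and day 0 differ in both substrate and state. Replicates are labelled biological, but whether they came from separate differentiation runs is not given, so p-values measure the spread between these wells.

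Notch receptors are membrane proteins that are activated by ligands on a neighbouring cell. Ligand binding leads to cleavage by an ADAM protease and then by γ-secretase, and the freed intracellular domain enters the nucleus, where it joins the DNA-binding protein RBPJ and a Mastermind coactivator. HES and HEY genes are direct targets and encode basic helix-loop-helix repressors. In the embryo the pathway is known for the segmentation clock of the presomitic mesoderm, for the choice of arterial fate and for signalling between endocardium and myocardium. HEY2 is a marker of ventricular and HEY1 of atrial myocardium in the mouse heart. The files hold RNA levels, and receptor cleavage was not measured.

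RNA levels are given as counts per 1000000 counts after TMM scaling (CPM), which compare 1 gene between wells, and as transcripts per 1000000 (TPM) where genes are compared with each other. Total counts ranged from 6937136 to 33498022 per library, and the lowest was at day 20. Of the markers of the labelled stage, POU5F1 had 1503 CPM in pluripotent cells and 2.10 CPM at day 90, and the cardiac troponin gene TNNT2 had 8.64 and 3122 CPM. In a bulk sample, fewer cells of a type and less RNA per cell cannot be told apart, and this holds for every level below.

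Day 11 held 2 kinds of wells. Wells 1 and 2 had 4504 and 8596 CPM of endoderm and hepatic markers (FOXA2, SOX17, AFP, ALB, TTR and APOA1 summed), against 158 to 171 CPM in the other 3 wells. Their cardiomyocyte markers (TNNT2, MYH6, MYH7, MYL7, ACTN2 and NKX2-5 summed) came to 7260 and 4710.0 CPM, against 17695 to 19152 CPM. Of the 10 members, 8 had ranges in the 2 wells that lay apart from those in the 3 others, and so did 65.7% of all genes tested. JAG1 was at 127 and 153 CPM against 388 to 416 CPM, DLL3 at 2.53 and 3.00 CPM against 10.6 to 12.2 CPM, and HEY2 at 15.0 and 27.3 CPM against 36.6 to 42.9 CPM. NOTCH2 was the 1 member that lay apart in the other direction, at 196 and 219 CPM against 160.3 to 184 CPM. Fitted changes of the members that use day 11 are given with and without these wells where they are described. Without them no receptor was called from day 9 to day 11 or from day 11 to day 14 either (log2 changes -0.34 to -0.23 and -0.33 to 0.60). High endoderm and hepatic markers were not particular to day 11. Well 2 of day 9 had 6110 CPM, against 473 to 1750 CPM in the other day 9 wells. Its cardiomyocyte markers came to 6196 CPM, against 11295 to 14431 CPM. Endoderm and hepatic markers summed to 2431 to 4008 CPM in the day 14 wells and 931 to 3982 CPM in the day 20 wells. Cardiomyocyte markers at day 14 came to 7514 to 10832 CPM. Well 10 of day 30, with an RNA integrity number of 7.4 (shared with well 2 of day 14 as the lowest of the series), had the lowest value of its group for all 3 receptors.

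**Figure D1:**
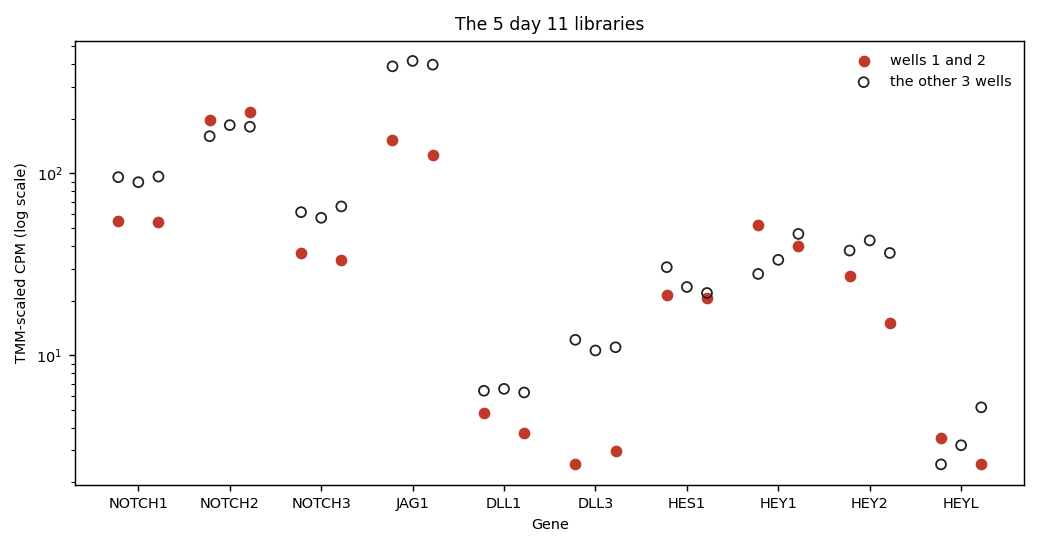
TMM-scaled CPM (log axis) of the 10 genes in the 5 wells of day 11, with wells 1 and 2 filled and the other 3 open. JAG1 and DLL3 show the widest separation, and HEY1 and HEYL overlap.

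RBPJ, the DNA-binding protein of the pathway, binds the core TGGGAA. This motif (also as TTCCCA, its other strand) was sought in the 250 bases before the RefSeq transcription start in GRCh38.p14. The table used held 7 of the members, and the matches were NOTCH1, NOTCH2, NOTCH3, JAG1, HES1, HEY2 and HEYL. HES1, HEY2 and HEYL held the core and the receptors and JAG1 did not, while 20.8% of all 35116 promoters of this length held it. HES1 and HEYL each held 2 copies, and 2.90% of all promoters held at least 2. The longer form CGTGGGAA, which contains the core, stood in HEY2 and HEYL and in 0.720% of all promoters. For HEYL, all 250 bases lie in an exon of the GENCODE annotation. The HEY2 bases shown lie within the gene as annotated by GENCODE, which begins at base 125747664. The HES1 and HEY2 sequences are shown because both carry the core while their RNA followed different courses. They stop at the first base of an annotated exon, and capitals mark the core on either strand. HES1 is at chr3:194135898-194136144 on the forward strand and HEY2 at chr6:125749382-125749579 on the forward strand:
HES1: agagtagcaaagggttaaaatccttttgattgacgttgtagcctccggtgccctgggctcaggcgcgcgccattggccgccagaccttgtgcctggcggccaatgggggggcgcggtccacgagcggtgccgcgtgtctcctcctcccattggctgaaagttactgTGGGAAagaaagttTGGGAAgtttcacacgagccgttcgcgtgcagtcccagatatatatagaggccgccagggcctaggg
HEY2: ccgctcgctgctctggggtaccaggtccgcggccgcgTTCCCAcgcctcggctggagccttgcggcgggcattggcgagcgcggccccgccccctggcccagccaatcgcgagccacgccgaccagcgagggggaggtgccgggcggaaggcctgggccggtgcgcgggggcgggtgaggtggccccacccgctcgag

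In HES1 the cores lie 84 to 79 and 70 to 65 bases before the start, both on the forward strand. In HEY2 the core lies 213 to 208 bases before it, on the reverse strand. HES proteins bind N boxes, sought here as CACNAG on both strands, and HES1 held 3 of them in the window searched, while 32.0% of all promoters held at least 1. A match describes the letters of the sequence and says nothing of occupancy.

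Each group was compared with the one sampled before it, and days 9 and 0 and days 90 and 9 were also compared, by the quasi-likelihood test of edgeR across the whole table. To be called, a gene needed an adjusted p under 0.05 (Benjamini-Hochberg, over the 22955 genes) and a log2 change, later minus earlier, of at least 1 in size. The step from day 1 to day 3 called the most members of any step: 6 of 10 rose (NOTCH2, JAG1, DLL1, DLL3, HES1 and HEY1) and none fell, where 11.0% of all genes were called higher and 17.8% in either direction. The median log2 change of the members was 1.28 there, and that of all genes 0.07. Day 0 against pluripotent cells called 2 members, both higher (HES1 and HEY1), and 2.91% of all genes, 2.73% higher. In the step from day 0 to day 1 none was called, beside 13.5% of all genes. DESeq2 called none either, beside 3299 of 22947 genes. An unadjusted p under 0.05 was reached by 2 members there, and the share of all genes that reached it was not computed.

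After day 3 fewer members were called at a time. The step to day 5 called 2, both lower (DLL3 and HEY2), where 10.1% of all genes were called and 4.34% were lower. Between days 5 and 7 JAG1 and HES1 rose, against 3.65% of all genes called and 2.74% higher, and between days 9 and 11 DLL1 and HES1 fell, against 1.63% and 1.24% lower. No member was called from day 7 to 9 (1.28% of all genes), from day 11 to 14 (0.697%) or from day 14 to 20 (0.0479%). An unadjusted p under 0.05 was reached by 1, 2 and 2 members, and the share of all genes that reached it was not computed. In those steps DESeq2 called 0, 1 and 1 members, beside 409, 417 and 42 of 22947 genes. Without wells 1 and 2 of day 11, 3.77% of all genes were called in day 11 against day 9, with DLL1 and HES1 again the members, and 10.4% in day 14 against day 11, with DLL3 alone. The late steps called 1 member each: DLL1 fell from day 20 to 30 (2.02% of all genes called, 1.26% lower) and HEY1 from day 30 to 90 (5.09% called, 2.44% lower).

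Over the longer spans, 4 members rose from day 0 to day 9 (JAG1, DLL1, HES1 and HEY1) and none fell, while 31.7% of all genes were called and 17.1% were higher. From day 9 to day 90, HEY2 rose and 6 members fell (NOTCH1, JAG1, DLL1, DLL3, HES1 and HEY1), while 23.9% of all genes were called, in about equal numbers higher (2739) and lower (2746). Both spans use the day 9 wells. Across the 11 steps, 7 of 10 members were called at least once, as were 34.8% of all genes. NOTCH1, NOTCH3 and HEYL were not called in any step.

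**Figure D2:**
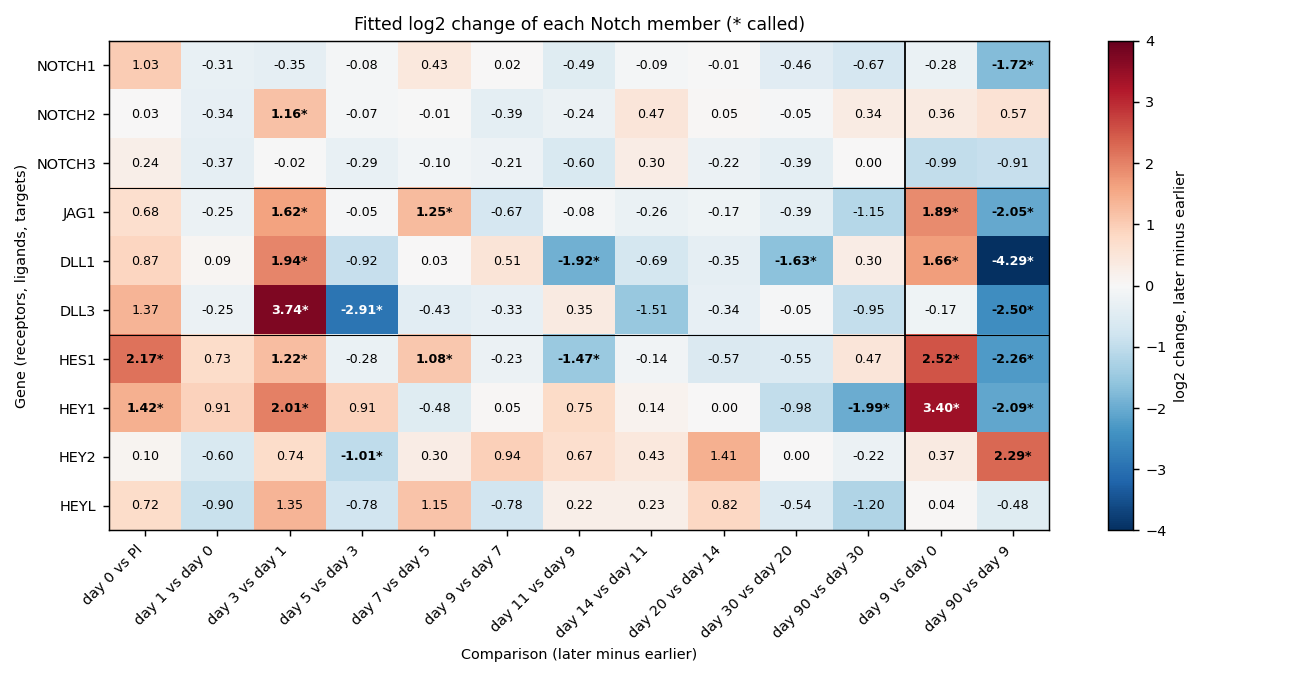
Fitted log2 change of each gene (rows) in each comparison (columns), later minus earlier, with an asterisk where the gene was called. Among called changes, the column for day 3 against day 1 holds 6 rises. The last column holds 6 called falls, with a called rise of 2.29 for HEY2.

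**Figure D3:**
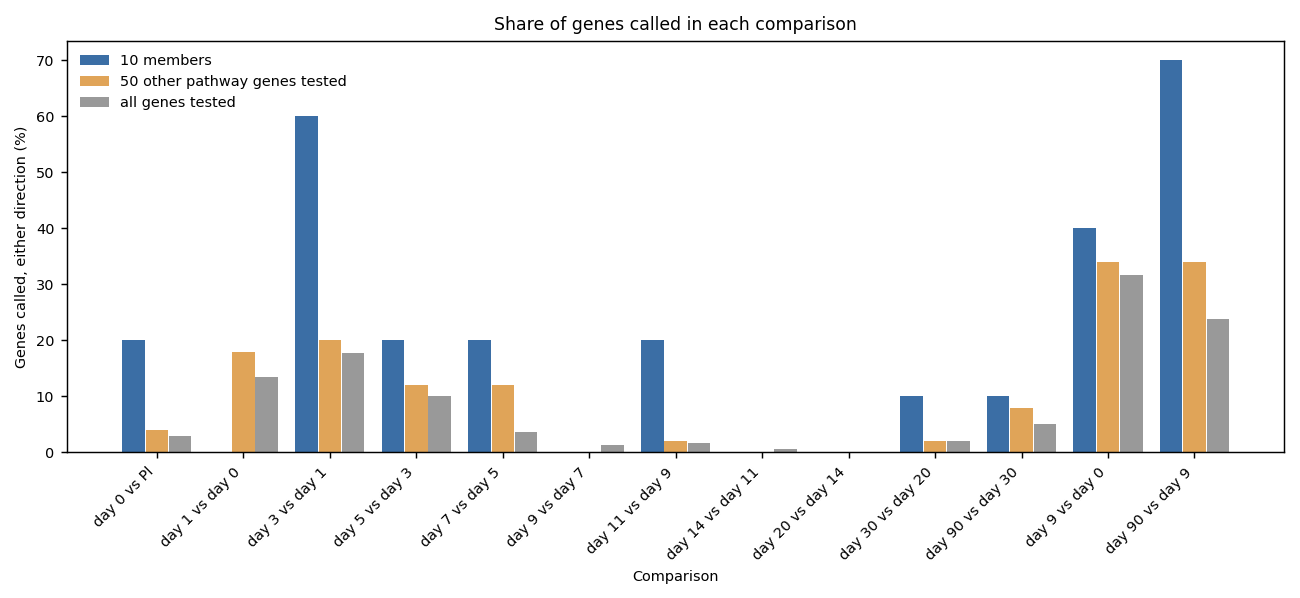
Share of genes called in either direction (%) in each comparison, for the 10 members, the 50 other pathway genes tested and all genes tested. The members reach 60% and 70% in day 3 against day 1 and day 90 against day 9, beside 17.8% and 23.9% of all genes.

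NOTCH1, a receptor with a known part in endothelium and valve formation, was highest at day 0 and lowest at day 90. The pluripotent wells had 52.97, 59.6 and 84.2 CPM and the day 0 wells 121, 129.7 and 149.9 CPM. These ranges did not overlap, as was so for 47.8% of all genes in this comparison. The log2 change of 1.03 missed the threshold with an adjusted p of 0.063, and passed it with DESeq2 (1.04, adjusted p = 0.021). At day 9 the wells had 69.4, 103, 108, 111 and 158 CPM and at day 90 28.1, 28.8 and 43.00 CPM, a fall of -1.72 ± 0.32 (SE), adjusted p = 4.5e-05, with all day 90 wells below all day 9 wells. In the order of the 12 means, each group overlapped with the next. Without well 10 of day 30, which had 17.5 CPM against 55.5 and 85.8 CPM in the other wells, the step from day 30 to day 90 was also called (-1.08, adjusted p = 0.015).

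NOTCH2, a receptor expressed in many mesodermal tissues, rose in 1 step, from day 1 to day 3, and was called in no other. Its day 1 wells had 136, 136 and 137 CPM and its day 3 wells 297, 299 and 318 CPM. The 2 groups were tight and far apart, with a log2 change of 1.16 ± 0.26 (SE), adjusted p = 0.00069. After that the means lay between 188 ± 21.5 CPM (SD, n = 5) at day 11 and 329.8 ± 98.8 CPM (SD, n = 3) at day 90. The comparison of days 90 and 9 passed on p but not on size (0.57 ± 0.23 (SE), adjusted p = 0.042). Part of NOTCH2 is duplicated in the NOTCH2NL genes, and how their reads were divided is uncertain.

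NOTCH3, the receptor of mural cells in adult vessels, was lowest late in the series. Its wells had 105, 132 and 153 CPM in pluripotent cells, 129, 148 and 184 CPM at day 0 and 33.4, 39.6 and 49.98 CPM at day 90. Day 9 against day 0 gave -0.99 ± 0.25 (SE), adjusted p = 0.0014 and day 90 against day 9 gave -0.91 ± 0.27 (SE), adjusted p = 0.0066. Both passed on p with ranges that did not overlap (as for 56.0% and 36.7% of all genes), and both fell short of the size required. The first was called without well 1 or 3 of day 0 (adjusted p = 0.0025 and 0.0059) or without well 3 or 4 of day 9 (-1.01 and -1.16), and the second without well 2 of day 90 (-1.09). Markers of mural and smooth muscle cells (MYH11, ACTA2, TAGLN, CNN1, PDGFRB and RGS5) summed to 169 CPM in pluripotent cells and 1039 CPM at day 9. The sum was 2163 CPM at day 30 and 1122 CPM at day 90. The part of these markers in the levels of NOTCH3 was not tested.

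JAG1, a ligand known for its role in Alagille syndrome and in the vessel wall, had the highest mean TPM of the 3 ligands in every group and went through 2 rises and a fall. The wells had 50.7, 76.98 and 84.7 CPM at day 1 and 155, 246 and 252 CPM at day 3, with no overlap. This rise was 1.62 ± 0.48 (SE), adjusted p = 0.0091, and it was not called without well 2 of day 1 (1.41, adjusted p = 0.057). At day 5 the wells spread from 48.3 to 376 CPM, and at day 7 they had 379, 409, 488, 497 and 719 CPM.

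All day 7 wells of JAG1 stood above all day 5 wells, but narrowly, with 376 CPM in the highest of day 5 and 379 CPM in the lowest of day 7. The log2 change was 1.25 ± 0.37 (SE), adjusted p = 0.034. The call was lost without well 2, 3 or 4 of day 5 (adjusted p = 0.095, 0.087 and 0.081) and without well 1, 4 or 10 of day 7 (0.11, 0.056 and 0.052). Day 7 was apart from the next mean, day 9, with 244, 279, 334, 335 and 372 CPM, although that step was not called (-0.67 ± 0.36 (SE), adjusted p = 0.5). Over the span from day 0 (83.3 to 84.9 CPM) to day 9 JAG1 rose by 1.89 ± 0.45 (SE), adjusted p = 0.00071.

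At day 11 JAG1 followed the split between wells described above. The log2 change from day 9 was -0.08 with all wells and 0.36 without wells 1 and 2 (adjusted p = 0.95 and 0.66). By day 90 the wells had 67.4, 71.9 and 87.7 CPM, with a fall of -2.05 ± 0.46 (SE), adjusted p = 0.00043 from day 9. The last step alone was not called (-1.15 ± 0.48 (SE), adjusted p = 0.13), but was without well 10 of day 30 (-1.50, adjusted p = 0.036).

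DLL1, a ligand needed for somite formation and arterial identity, had its highest mean at day 3. The wells had 4.82, 7.58 and 8.94 CPM at day 1 and 14.9, 31.5 and 35.5 CPM at day 3, apart from each other, and the rise was 1.94 ± 0.39 (SE), adjusted p = 0.00019. Means of 14.5 ± 3.26 CPM (SD, n = 5) and 14.8 ± 2.08 CPM (SD, n = 5) followed at days 5 and 7, and day 9 had 14.2, 16.7, 17.8, 23.6 and 33.1 CPM, overlapping with day 7 (0.51 ± 0.29 (SE), adjusted p = 0.54). The step from day 3 to day 5 was at the threshold on p and just short on size (-0.92 ± 0.33 (SE), adjusted p = 0.05). It was called without well 1 of day 3 (adjusted p = 0.022) or well 3 of day 5 (0.039).

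The steepest fall of DLL1 in any step came next. The day 11 wells had 3.74, 4.82, 6.25, 6.39 and 6.54 CPM, all below the day 9 wells, with a log2 change of -1.92 ± 0.31 (SE), adjusted p = 0.00018 and of -1.72 (adjusted p = 0.0026) without wells 1 and 2. Endothelial markers (PECAM1, CDH5, TIE1, ERG, ESAM, SOX18 and EGFL7) summed to 161 to 204 CPM in the day 9 wells and 88.6 to 103 CPM in the day 11 wells. None of the 7 was at or under 3 counts in all wells of either day, and their part in this result was not tested. From day 30 on DLL1 was near the limit of detection, with 0.285, 1.09 and 1.30 CPM at day 30 and 0.278, 1.40 and 1.43 CPM at day 90. A level of 3 counts is 0.0919 to 0.410 CPM depending on the library, and the lowest DLL1 value rests on 4 counts. The fall from day 20 to day 30 (-1.63 ± 0.46 (SE), adjusted p = 0.042) was not called in a fit of those 2 groups alone (-1.56, adjusted p = 0.93). That fit called 0 of 18096 genes, so it cannot decide on DLL1 alone. The call of DLL1 was also lost without well 2 (adjusted p = 0.055) or 3 (0.30) of day 20 or well 1 (0.26) or 10 (0.051) of day 30. The fall from day 9 to day 90 was -4.29 ± 0.44 (SE), adjusted p = 5.1e-10. DLL1 overlaps FAM120B on the opposite strand, which had 27.9 CPM on average, and use of strand in counting is not given in the sources used here.

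DLL3, a divergent family member that acts on Notch within the cell rather than as an activating ligand, was high at day 3 alone. Its wells had 4.92, 5.73 and 7.01 CPM at day 1, 58.4, 77.6 and 100.2 CPM at day 3 and 6.83, 7.49, 12.3, 12.5 and 13.4 CPM at day 5. The lowest day 3 well, at 58.4 CPM, stood above the highest well of every other group, 13.4 CPM at day 5. The rise was 3.74 ± 0.46 (SE), adjusted p = 4.8e-08 and the fall -2.91 ± 0.37 (SE), adjusted p = 2e-07, the largest changes of any member in a single step.

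Markers of the presomitic mesoderm moved with DLL3 only in part. Of the 4 listed (TBX6, MSGN1, MESP2 and RIPPLY2), TBX6 had 1.79 CPM at day 1, 33.2 CPM at day 3 and 2.45 CPM at day 5, and MESP2 0.346, 32.6 and 0.829 CPM. MSGN1 and RIPPLY2 stayed at or below 1.66 CPM in all 12 group means. The sum of the 4 was 68.6 CPM at day 3 and at most 3.44 CPM in any other group. Markers of cardiac mesoderm (MESP1 and PDGFRA) summed to 5.13 CPM at day 1, 641 CPM at day 3 and 1122 CPM at day 5. Whether these levels account for those of DLL3 was not tested. Later, DLL3 separated the day 11 wells, and the step to day 14 (-1.51 ± 0.41 (SE), adjusted p = 0.058) was called without wells 1 and 2 of day 11 (adjusted p = 0.00023), without either of them (-1.73 and -1.71) and without well 3 of day 14 (-1.83). The day 14 wells had 2.21 to 3.59 CPM of DLL3, beside 2.53 and 3.00 CPM in wells 1 and 2 of day 11. Their endoderm and hepatic markers summed to 2431 to 4008 CPM, against 158 to 171 CPM in the day 11 wells kept. The fit without wells 1 and 2 thus compared wells that differed in these markers, whose part in the step was not tested. At day 90 the wells had 0.626, 0.896 and 1.74 CPM of DLL3, lower than at day 9 by -2.50 ± 0.45 (SE), adjusted p = 2.7e-05.

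**Figure D4:**
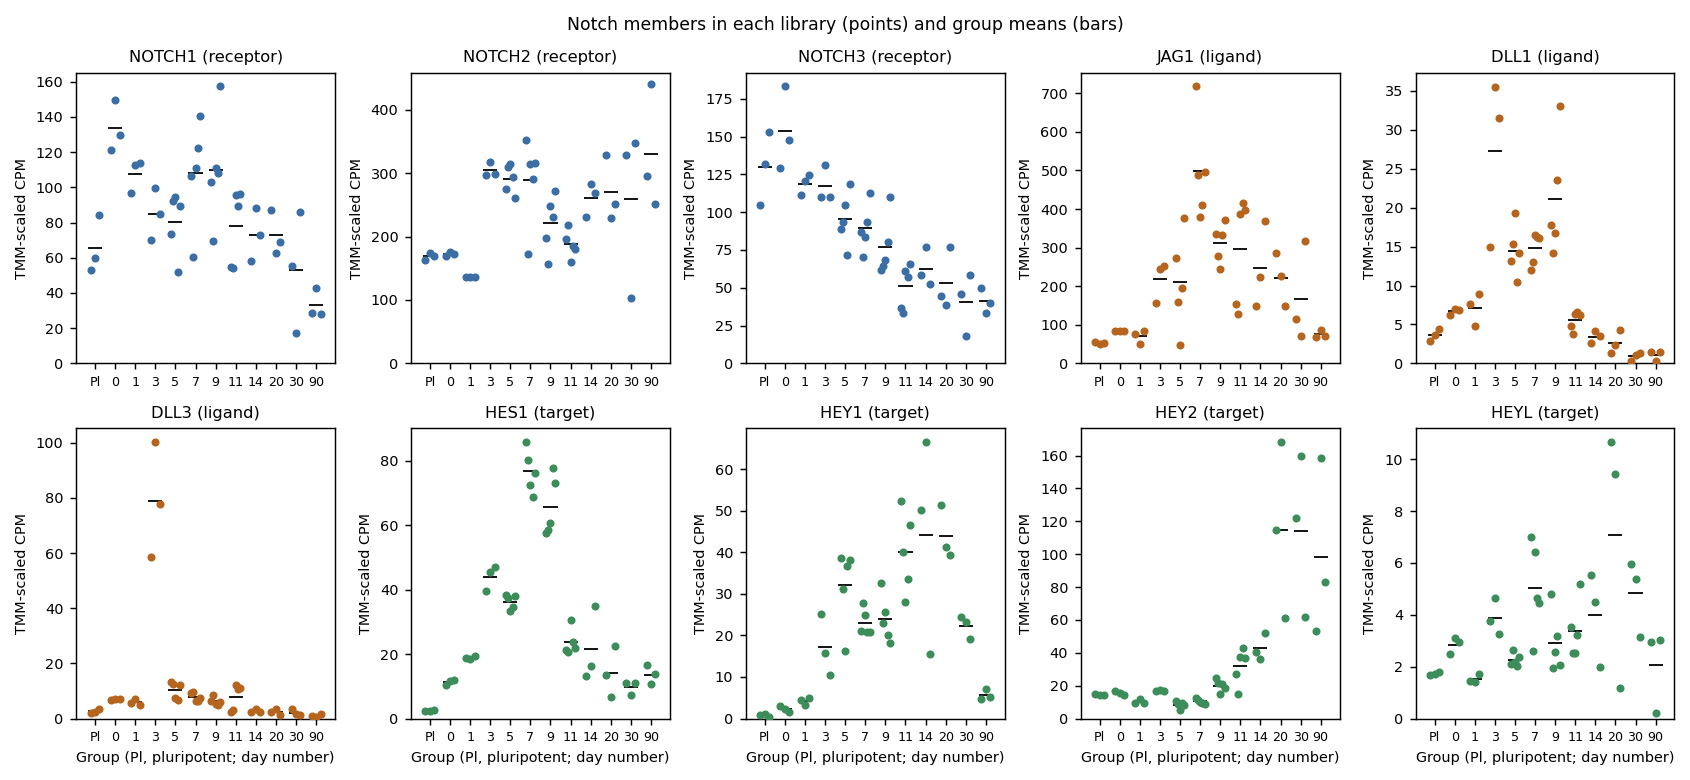
TMM-scaled CPM (linear axis from 0, own scale per gene) of every well (points) and group means (bars) for the 3 receptors, 3 ligands and 4 targets, with Pl for pluripotent cells and numbers for days. DLL3 stands out at day 3, HES1 at days 7 and 9 and HEY2 from day 20.

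HES1, the target gene that oscillates in the segmentation clock, rose in 3 of the first 5 steps. The wells had 2.39, 2.49 and 2.70 CPM in pluripotent cells and 10.4, 11.7 and 12.1 CPM at day 0, a rise of 2.17 ± 0.28 (SE), adjusted p = 3.7e-06. Day 1, with 18.5, 18.9 and 19.4 CPM, passed on p but not on size (0.73 ± 0.26 (SE), adjusted p = 0.038). At day 3 the wells had 39.7, 45.3 and 46.9 CPM (1.22 ± 0.26 (SE), adjusted p = 0.00036).

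In each of these steps every later HES1 well was above every earlier one, where 47.8%, 55.3% and 57.0% of all genes had ranges apart. Day 5, with 33.3, 34.6, 37.3, 37.9 and 38.3 CPM, lay just below day 3 without a call (-0.28 ± 0.23 (SE), adjusted p = 0.45). Day 7, with 68.9, 72.6, 76.1, 80.1 and 85.9 CPM, was the highest group, with a rise of 1.08 ± 0.20 (SE), adjusted p = 0.00026. The day 9 wells, with 57.6, 58.4, 60.7, 73.2 and 77.6 CPM, overlapped with it.

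Between days 9 and 11 HES1 fell. The day 11 wells had 20.8, 21.4, 22.03, 23.8 and 30.5 CPM, all below the lowest of day 9, and the log2 change was -1.47 ± 0.20 (SE), adjusted p = 3.7e-05 with all wells and -1.36 (adjusted p = 0.00048) without wells 1 and 2. Both kinds of day 11 wells, which differed in hepatic and cardiomyocyte markers, lay under day 9. Endothelial markers summed to 161 to 204 CPM in the day 9 wells and 88.6 to 103 CPM in the day 11 wells. The part of any of these markers in the fall of HES1 was not tested. From day 14 to day 90 the means lay between 9.83 ± 2.09 CPM (SD, n = 3) at day 30 and 21.4 ± 11.7 CPM (SD, n = 3) at day 14, with overlapping wells. The step from day 14 to day 20 (-0.57 ± 0.26 (SE), adjusted p = 0.8) was called without well 3 of day 20 (-1.09, adjusted p = 0.036). The medium supplement was changed between days 9 and 11, so day and medium cannot be told apart in this step.

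HEY1, an RBPJ target of endocardium and atrial myocardium, went from about 1 CPM in pluripotent cells to a broad high level. Its wells had 0.474, 0.964 and 1.07 CPM in pluripotent cells, 1.59, 2.26 and 2.92 CPM at day 0 and 3.31, 4.58 and 4.86 CPM at day 1. The first step was 1.42 ± 0.41 (SE), adjusted p = 0.033, and with 1 of its 6 wells left out the call held only where that was well 3 of day 0. The adjusted p was 0.077 to 0.17 without any other of the 6. At day 3, with 10.5, 15.9 and 25.1 CPM, all wells were above those of day 1 (2.01 ± 0.36 (SE), adjusted p = 4.1e-05).

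From day 5 through day 30 the means of HEY1 lay between 22.3 and 44.1 CPM. Day 5 had 16.2, 31.2, 36.8, 38.2 and 38.7 CPM and its change from day 3 (0.91 ± 0.32 (SE), adjusted p = 0.04) was called only without well 1 of day 3 (1.30) or well 3 of day 5 (1.08). The 3 highest means were 44.1 CPM at day 14 (15.6, 50.1 and 66.5 CPM), 44.04 ± 6.42 CPM (SD, n = 3) at day 20 and 40.1 ± 9.75 CPM (SD, n = 5) at day 11 (36.0 ± 9.51 CPM without wells 1 and 2), and all neighbours in that order overlapped. The day 14 wells alone spanned more than the 3 means.

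HEY1 then fell. At day 30 the wells had 19.2, 23.3 and 24.4 CPM, all below those of day 20, without a call (-0.98 ± 0.35 (SE), adjusted p = 0.12), and at day 90 4.62, 5.15 and 7.17 CPM. The last step was -1.99 ± 0.36 (SE), adjusted p = 0.00047, and it was not called in a fit of those 2 groups alone (-2.01, adjusted p = 0.098). That fit called 2 of 17049 genes, so it cannot decide on HEY1 alone.

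HEY2, the repressor of ventricular myocardium, was the 1 member called higher at day 90 than at day 9. It was at 14.1, 14.2 and 14.9 CPM in pluripotent cells, at 16.7, 17.00 and 17.5 CPM at day 3 and at 5.39, 8.07, 8.70, 9.39 and 10.7 CPM at day 5, its lowest group. The fall from day 3 to day 5 sat on the size threshold (-1.01 ± 0.29 (SE), adjusted p = 0.013). The size was under 1 in 5 alternative fits (-0.96 with the stricter filter) and without well 2 of day 3 or well 3 or 5 of day 5 (-0.98, -0.89 and -0.99).

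The rise of HEY2 was spread over several steps, none of them called. Day 9 had 14.8, 18.5, 20.8, 21.5 and 24.7 CPM, all above day 7 (0.94 ± 0.26 (SE), adjusted p = 0.046, called without well 2 of day 9 with 1.03). Day 11 against day 9 gave 0.67 with all wells and 0.96 without wells 1 and 2 (adjusted p = 0.15 and 0.022). At day 14 the wells had 36.5, 40.5 and 52.3 CPM and at day 20 60.9, 115 and 168 CPM, with no overlap.

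This step of HEY2 from day 14 to day 20 had a log2 change of 1.41 ± 0.33 (SE), adjusted p = 0.13. It was called without well 3 of day 20 (1.63, adjusted p = 0.011), by DESeq2 (1.39, adjusted p = 0.027) and with replicate number as a term (1.54, adjusted p = 0.027). With only libraries whose RNA integrity number was at least 8.5, which leaves 1 well of each of these days, it was 0.75 (adjusted p = 0.99). The wells of days 20, 30 and 90 overlapped and neither step between them was called, except that day 90 was lower than day 30 with limma on log2(TPM + 1) (-1.04, adjusted p = 0.044) and on log2(TPM + 0.1) (-1.11, adjusted p = 0.046). The wells of day 90 had 53.4, 82.9 and 158 CPM, and the rise from day 9 to day 90 was 2.29 ± 0.29 (SE), adjusted p = 4.5e-08. Cardiomyocyte markers summed to 11409 CPM at day 9 and 28383 CPM at day 90, or 17242 CPM without well 4, which had 50664 CPM and also the highest HEY2. Their part in the result was not tested. An antisense gene on the opposite strand, AL365259.1, had 1.24 CPM on average.

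HEYL, a family member known from vascular smooth muscle, was the least abundant target from day 1 on and was called in no comparison. Its means ran from 1.52 ± 0.163 CPM (SD, n = 3) at day 1 to 7.09 ± 5.17 CPM (SD, n = 3) at day 20, and all neighbours in their order overlapped. The day 20 wells had 1.17, 9.44 and 10.7 CPM. The largest change in a step was that of day 3 against day 1 (1.35 ± 0.53 (SE), adjusted p = 0.054), which was called by DESeq2 (1.33, adjusted p = 0.038) and in 3 other alternatives. Well 4 of day 90 held 3 counts of HEYL.

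Levels per transcript length show how the make-up of each role changed. Among the 3 receptors in TPM, NOTCH3 had the largest share in pluripotent cells, 47.4% on average, and NOTCH2 the largest share at day 90, 76.4%. NOTCH1 kept between 9.0% and 26.4%. Among the ligands, JAG1 held 81.1% in pluripotent cells and 94.7% at day 90. At day 3 the mean TPM of DLL3 (29.3) came close to that of JAG1 (34.0), and DLL3 held 42.3% of the 3.

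Among the targets, the leading gene changed from HEY2 to HES1 and back. HEY2 held 68.0% in pluripotent cells at a level of 3.45 TPM, and HES1 held 49.5% at day 0, rising to 74.7% at day 7. HEY1 had the largest mean share at day 11 (41.1%, and 36.1% beside 34.0% for HES1 without wells 1 and 2) and day 14 (39.6%). HEY2 led again at day 20 (54.9%), day 30 (67.4%) and day 90 (70.5%). Shares are averages over wells and carry no test, and they do not depend on how libraries are scaled.

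**Figure D5:**
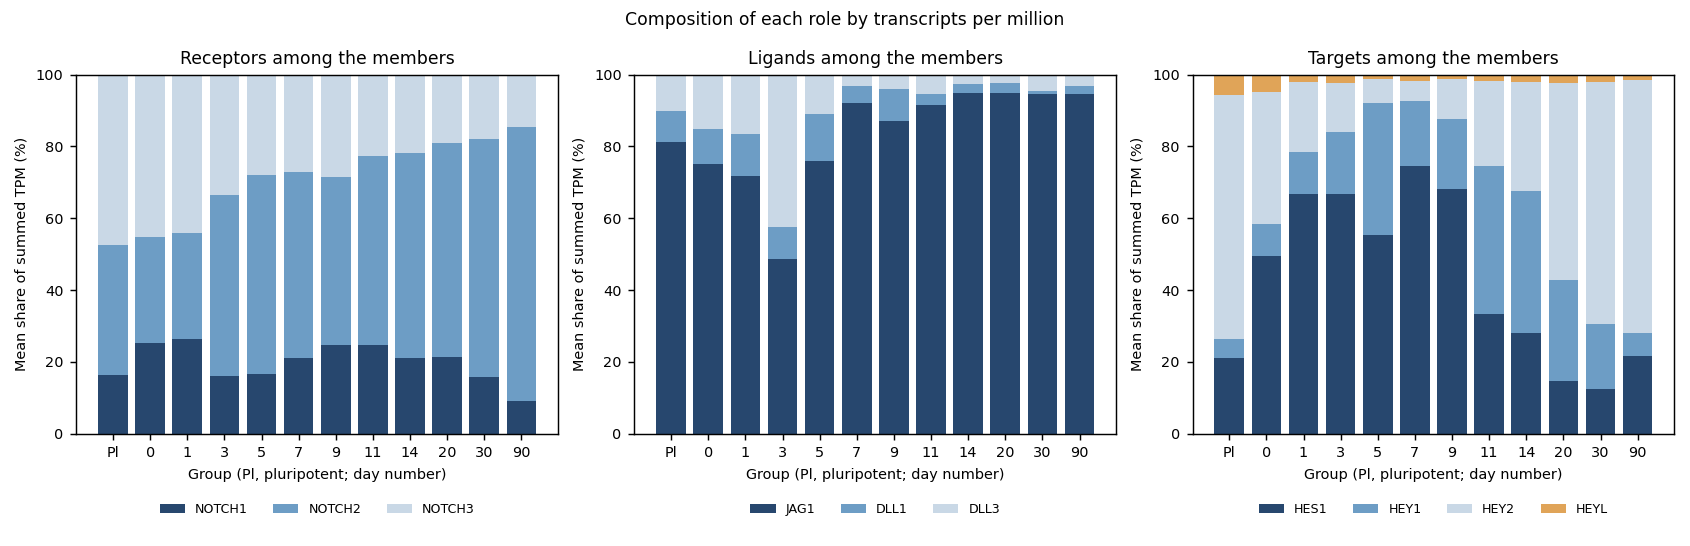
Mean share of the summed TPM (%) that each gene held among the 3 receptors, the 3 ligands and the 4 targets, by group. NOTCH2 takes over from NOTCH3, JAG1 holds most of the ligand sum except at day 3, and HES1 gives way to HEY1 and then HEY2.

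Of 51 further pathway genes, 50 were tested, and HES5 was not. In the steps, 22 of 50 (44%) were called at least once, beside 34.8% of all genes. The largest number in a step was 10 from day 1 to day 3, with a median log2 change of 0.12. There 6 of the 50 rose and 4 fell, close to the shares of all genes (11.0% and 6.80%). That step also called the most genes of any step (17.8% in either direction). LFNG, a glycosyltransferase that alters which ligands a receptor answers to, rose (5.05 ± 1.201 to 24.4 ± 4.33 CPM, log2 change 2.27 ± 0.55 (SE), adjusted p = 0.0016), as did FURIN, the protease of receptor maturation (1.80 ± 0.21 (SE), adjusted p = 2.1e-08), and the coactivator gene MAML3 (1.16 ± 0.21 (SE), adjusted p = 5.9e-05). NRARP, a feedback inhibitor and target of the pathway, fell in the same step (9.95 ± 0.559 to 3.22 ± 0.758 CPM, -1.62 ± 0.32 (SE), adjusted p = 0.00013), and so did HES6 (-2.08 ± 0.34 (SE), adjusted p = 9.8e-06). NRARP and HES1, both targets, thus went in opposite directions from day 1 to day 3.

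From day 0 to day 1, when no member was called, 8 of the 50 fell and PSEN2, which encodes a catalytic subunit of γ-secretase, rose (9.66% and 3.86% of all genes). RBPJ itself was among them, at 208 ± 12.1 CPM at day 0 and 93.2 ± 7.16 CPM at day 1 (SD, n = 3 each, log2 change -1.16 ± 0.14 (SE), adjusted p = 9.2e-08). LFNG (-2.19) and DTX1, a cytoplasmic regulator of the receptor (-2.48), were the others with a log2 fall beyond 2, together with the ubiquitin ligase gene NEURL1 (-2.03).

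DLL4, the ligand of arterial endothelium, rose from day 3 to day 5 (0.268 ± 0.0474 to 1.52 ± 0.609 CPM, 2.48 ± 0.55 (SE), adjusted p = 0.0011). HES4 rose in that step and from day 5 to 7 (1.59 and 1.11). NEURL1B, which acts on ligand uptake, rose in the same 2 steps (1.25 and 1.37). DLK1, a non-canonical ligand, rose to day 0 and again from day 5 to day 7 (3.99 and 2.23). LFNG was the 1 gene of the list called from day 9 to day 11 (17.6 ± 4.34 to 4.31 ± 1.52 CPM, -2.03 ± 0.43 (SE), adjusted p = 0.0048), in the step in which DLL1 and HES1 fell, beside 1.63% of all genes called and 1.24% lower. Without wells 1 and 2 of day 11 LFNG (-1.75, adjusted p = 0.029) and DTX1 (-2.44, adjusted p = 0.008) were called, beside 3.77% of all genes. From day 30 to day 90 MFNG, DLL4 and NOTCH4 fell (-3.83, -3.32 and -1.25) and DLK2 rose (1.72), with endothelial markers at 56.3 and 17.9 CPM in sum. Without well 3 of day 30, which had 99.4 CPM, the former was 34.7 CPM. The endothelial sum was 49.3 CPM in pluripotent cells and 48.5 CPM at day 0. At day 90 SOX18 was at or under 3 counts in all wells, and the part of these markers in the result was not tested.

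In day 90 against day 9, 5 of the 50 were higher and 12 lower, beside 11.9% of all genes higher (2739) and a like number lower (2746). The share of the list that was higher, 10%, was close to that of all genes. KAT2B, a histone acetyltransferase of the Notch complex, rose most clearly (7.48 ± 0.758 to 40.1 ± 2.73 CPM, 2.42 ± 0.20 (SE), adjusted p = 2.1e-12), while MAML3 (-2.04), FURIN (-1.36) and the corepressor genes TLE1 (-1.65) and TLE3 (-1.32) fell. In day 9 against day 0, 11 were higher and 6 lower (17.1% and 14.6% of all genes), RBPJ among the latter (-1.37).

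For each member the genes whose 12 group means ran most alike were taken from 7647 protein-coding genes by Pearson's r of log2(CPM + 1). DLL3 ran most like TBX6 (r = 0.955), JAG1 like FN1, which encodes fibronectin (0.970), HES1 like STAT2 (0.960) and ID3 (0.935), HEY1 like SMAD3 (0.955) and HEY2 like PLP2 (0.973) and LAMA2 (0.971). NOTCH3 ran most like SPAG5 (0.982), a gene of the mitotic spindle, and DLL1 like DLG5 (0.962). The values describe 12 means taken from shared libraries, and of the 20 genes found, 9 were also among the first 2 by Spearman's rho. Among the members, the highest r was that of JAG1 and HEY1 (0.84), DLL1 and DLL3 had 0.83, and JAG1 and HES1 0.80. The lowest was that of NOTCH3 and HEY2 (-0.85), and HES1 and HEY2 had -0.35, over the same 12 groups.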

How the data were processed

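RNA of 44 wells was measured with a stranded total-RNA kit and 150 bp paired-end reads, per the labels' protocols. Reads were trimmed, aligned and quantified with tools that include cutadapt, STAR 2.5.2b and RSEM 1.2.31 and the build hg38, per the submitters' processing notes. Use of strand in counting is not given in the sources used here. The authors deposited estimated counts per gene, of which 93.8% were whole, and transcripts per 1000000 (TPM) made from them. The deposited table of RNA quality gives a score from 1 to 10 for each library (RNA integrity number, 7.4 to 10.0) and the sequencing lane. Every column was matched to a sample by name. Symbols and coordinates come from GENCODE release 29 (GRCh38), which named 56769 of 60499 identifiers. RefSeq sequences are from GRCh38.p14.

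Here the estimated counts were rounded, filtered with filterByExpr (22955 genes left), scaled by TMM and fitted with edgeR 4.0.16 (R 4.3.3), with 1 mean for each of 12 groups and the quasi-likelihood test of 13 comparisons. Adjusted p values are Benjamini-Hochberg values over all genes tested. Levels are CPM with TMM scaling, as mean ± SD over wells. The lowest level taken as detectable was 3 counts, and this floor covers counting error only. Marker sums had been planned in TPM and are given in CPM, the scale of the members, with the TPM sums computed beside them. The steps were tested on simulated data.

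The members, the pathway and marker lists and the rule for named genes were chosen with earlier results of these data known. The rule names all 10 members, any pathway gene that was called (the largest changes first) and the 2 genes most like each member in group means, among protein-coding genes whose highest group mean reached 10 TPM. The named wells and pairs of members were picked after their values were seen. Alternatives were DESeq2 1.42.0 and its size factors, other filters, limma 3.58.1 on log2(TPM + 1) and log2(TPM + 0.1), the compared groups alone, lane or replicate number as a term, and each well left out. Added after seeing the data were fits without wells 1 and 2 of day 11 and without libraries whose RNA integrity number was under 8.5.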

Additional observations from a re-analysis of the deposited data

How the results depend on the processing

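Of 27 calls of a member in the 13 comparisons, none changed sign in any alternative. They were kept in all but 1 case each with RLE scaling, no filter, a stricter filter, DESeq2 and the replicate block, while 3 were lost in fits of the compared groups alone, 7 with limma on log2(TPM + 1) and 8 with limma on log2(TPM + 0.1). The cause was not tested. On the TPM scale the median of 13535 genes shifted against the counts by -0.71 (log2) from day 30 to day 90 and by 0.49 from day 11 to day 14.

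The count of members called moved as follows, with the number called among all genes tested beside it. For day 0 against pluripotent cells it was 4 with RLE scaling, the stricter filter, DESeq2, the compared groups alone and the replicate block, 0 with limma on log2(TPM + 1) and 1 on log2(TPM + 0.1). All genes called there numbered, in the same order, 709 of 22955, 712 of 16364, 911 of 22947, 1592 of 17557 and 802 of 22955. On the TPM scales they numbered 22 and 38 of 13664. Day 1 against day 0 had 1 with lane as a term, beside 2976 of 22955 genes. Day 5 against day 3 had 1 with RLE scaling, no filter, the stricter filter, DESeq2 and the compared groups alone. Those fits called 2300 of 22955, 2172 of 46084, 2017 of 16364, 2497 of 22947 and 2764 of 17971 genes. Day 7 against day 5 had 0 on either TPM scale (258 and 345 of 13664 genes). Day 11 against day 9 had 0 on log2(TPM + 0.1) (6 of 13664 genes). Day 14 against day 11 had 1 with no filter, the stricter filter, DESeq2 and without wells 1 and 2 of day 11. Those fits called 125 of 46084, 209 of 16364, 417 of 22947 and 2371 of 22867 genes. Day 20 against day 14 had 1 with DESeq2 (42 of 22947 genes) and the replicate block (68 of 22955 genes). Day 30 against day 20 had 0 with the compared groups alone, either TPM scale and the replicate block. Those fits called 0 of 18096, 61 and 53 of 13664 and 416 of 22955 genes. With RNA integrity numbers of at least 8.5 only 1 well of day 20 is left, so no count is given. Day 90 against day 30 had 0 with the compared groups alone, 3 and 5 on the TPM scales, and 2 with the block and with RNA integrity numbers of at least 8.5. Those fits called 2 of 17049, 2076 and 3983 of 13664, 1336 of 22955 and 2015 of 23232 genes.

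For the other pathway genes, day 0 against pluripotent cells had 5 with the compared groups alone and 1 on either TPM scale. With limma on log2(TPM + 1) the counts were 1 (day 1 against 0), 5 (day 3 against 1), 0 (day 5 against 3), 3 (day 7 against 5), 8 (day 90 against 30), 11 (day 9 against 0) and 8 (day 90 against 9). Of all 13664 genes on that scale 799, 1573, 970, 258, 2076, 3395 and 2732 were called, in the same order. On log2(TPM + 0.1) the pathway genes called were 0, 0, 3 and 14 for days 1, 5, 7 and 90 against the day before. Beside them stood 885, 1146, 345 and 3983 of 13664 genes. Day 9 against day 7 had 1 without a filter, with DESeq2, the compared groups alone and the block. Those fits called 327 of 46084, 409 of 22947, 497 of 17698 and 360 of 22955 genes. Day 11 against day 9 had 0 on either TPM scale and 2 without wells 1 and 2 or without low RNA integrity numbers. Those fits called 23 and 6 of 13664, 862 of 22867 and 676 of 23232 genes. Day 14 against day 11 had 2 with the stricter filter, 3 with DESeq2 and 3 without wells 1 and 2 of day 11. Those fits called 209 of 16364, 417 of 22947 and 2371 of 22867 genes. Day 30 against day 20 had 2 with DESeq2 (714 of 22947 genes). It had 0 with the compared groups alone (0 of 18096 genes) and on either TPM scale (61 and 53 of 13664). Day 90 against day 30 had 0 with the compared groups alone (2 of 17049 genes).

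Leaving out 1 well at a time gave 1 to 2, 0 to 0, 5 to 6, 1 to 4, 1 to 2, 0 to 1, 2 to 2, 0 to 1, 0 to 2, 0 to 1 and 1 to 3 members called over the 11 steps in time order, 4 to 5 for day 9 against day 0 and 7 to 8 for day 90 against day 9. For the other pathway genes the ranges were 2 to 2, 7 to 9, 8 to 10, 4 to 7, 5 to 6, 0 to 0, 1 to 2, 0 to 6, 0 to 0, 0 to 3, 2 to 7, 16 to 19 and 14 to 18. All-gene counts of these fits, out of 22866 to 24378 tested, moved too. In the steps up to day 7 they were 252 to 395, 2408 to 2678, 3474 to 3841, 1686 to 2293 and 710 to 862. In the later steps they were 201 to 291, 203 to 441, 2 to 1298, 3 to 218, 348 to 879 and 709 to 1794. Day 9 against day 0 had 6692 to 7229 and day 90 against day 9 had 4909 to 5554. In day 14 against day 11, 2 of 22936 genes were called without well 7 of day 11 and 1298 of 24358 without well 3 of day 14.

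Wells with the same replicate number deviated together in some steps and not in others, so whether the numbers pair the wells is not settled. Deviations of wells with the same number correlated between 0.055 and 0.454 over 5 pairs of days 9 and 7, and between -0.077 and 0.062 over 3 pairs of days 5 and 3. Days 20 and 14 had 0.553 and 0.611, and days 14 and 11 had 0.102 and 0.342, over only 2 pairs each. In day 20 against day 14 the replicate block made HEY2 a call (1.54, adjusted p = 0.027). Days 90 and 30 shared no number. Depth limits the late levels of DLL1 and HEYL, which rest on as few as 4 and 3 counts.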

Other observations

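Wells of a late day differed from each other in several members at once. At day 14, well 6 had the highest JAG1 (370.0 CPM against 149.9 and 223 CPM) and the highest HES1 (34.8 against 13.2 and 16.3 CPM) of its group, and the lowest HEY1 (15.6 against 50.1 and 66.5 CPM). Its markers of epicardium and fibroblasts (WT1, TBX18, TCF21, UPK3B, COL1A1 and DCN summed) came to 334 CPM, against 874 and 1028 CPM. At day 20, well 3 had the lowest HEY2 (60.9 against 115 and 168 CPM), the lowest HEYL (1.17 against 9.44 and 10.7 CPM) and the highest HES1 (22.4 against 6.70 and 13.5 CPM). It also had the highest sum of endoderm and hepatic markers (3982 against 931 and 1758 CPM) and the lowest sum of epicardial and fibroblast markers (304 against 845 and 1186 CPM). Wells 1 and 2 of day 11, which were high in endoderm and hepatic markers, had the lowest HEY2 of their group. They also had the lowest HES1 of their group (20.8 and 21.4 CPM), unlike well 3 of day 20. At day 90, well 4 had the highest sum of endoderm and hepatic markers (134 against 8.79 and 9.41 CPM) and the highest HEY2 (158 CPM). These wells were singled out after their values were seen, and no test was made.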
